A study of Triticum aestivum with 20 samples.

Results

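The chromatin states of wheat leaf after vernalization were taken from the 1 genome segmentation that the authors deposited for vernalized leaf. All of its records were used. With neighbouring records of the same state merged into runs, it held 1053824 runs, out of 2080782 in the 2 segmentations of the series. The plants were winter wheat of cultivar AK58, grown in a greenhouse and kept for a month in a cold chamber. They were returned to the greenhouse for a day, and leaf was collected. Chromatin immunoprecipitation with sequencing (ChIP-seq) was done on 10 vernalized leaf libraries, with 2 each for H3K4me3, H3K36me3, H3K27ac, H3K27me3 and input. Peaks of these 4 marks and of chromatin accessibility went into ChromHMM, a hidden Markov model that gives each 200 bp bin 1 of 9 states. There is no segmentation per library, so every value below describes a single segmentation without replicates, and no spread between plants can be given. It holds no read numbers, so the depth behind a state is unknown. Leaf is a mixture of cell types, and a bin that carries 2 marks may carry them in different cells.

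H3K4me3 and H3K27ac mark the promoter ends of active genes, H3K36me3 marks transcribed gene bodies, and H3K27me3 is deposited by Polycomb complexes over repressed genes, where in plants it often covers the whole gene. Polycomb repression is known for its part in the memory of cold, since in Arabidopsis it keeps a repressor of flowering silent after winter. Accessible chromatin marks sites where regulatory proteins can reach the DNA. In the order in which the study shows its states, E1 has accessibility with strong H3K27ac, H3K36me3 and H3K4me3, E2 has mainly H3K36me3, E6 has accessibility with weak H3K27ac, and E7 has accessibility alone. These 4 are called activated here. E5 has H3K27me3 alone. E3, E4 and E8 combine H3K27me3 with active marks or accessibility and are called mixed, with H3K27me3, H3K27ac and H3K4me3 in weakly accessible E3, strong H3K27me3 and weak H3K27ac in E4, and accessibility with H3K27me3 in E8. E9 has none of these signals. The order of the states could not be checked from the file, so results are given by state number.

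Long runs belonged to E5 and E2, and all other modified states formed short islands. E5 had 139593 runs with a median length of 1200 bp, a mean of 3544 bp and a 99th percentile of 30600 bp. The distribution was strongly skewed, since the 9.03% of E5 runs of 10 kb or more held 48.3% of E5 bases. E2 had 197460 runs with a median of 600 bp and a mean of 1389 bp, and its runs of 10 kb or more held 9.88% of E2 bases. Most runs of the accessible states were short. E7 had 140722 runs with a median of 400 bp, and 41.9% of them were a single bin. E6 with 48117 runs and E8 with 22771 runs had the same median of 400 bp. E1, the state with all 3 active marks, had 61454 runs with a median of 400 bp, and 46.8% of them were a single bin. E3 had 18705 runs with a median of 600 bp and no run over 3400 bp. E4 had 19392 runs with a median of 400 bp. These medians rest on the many runs of 1 or 2 bins, and without runs under 600 bp the median was 2200 bp for E5 and 1400 bp for E2.

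**Figure D1:**
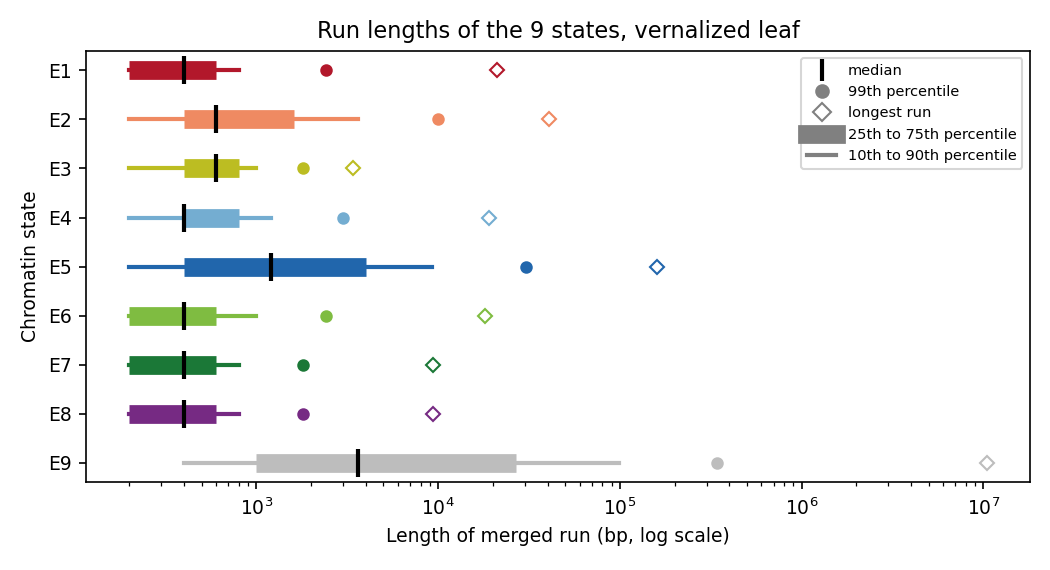
Length of merged runs (bp, log scale) for each of the 9 states over all 21 chromosomes. Black ticks are medians, thick bars the middle 50% of runs, thin bars the 10th to 90th percentile, filled circles the 99th percentile and open diamonds the longest run. E5 has the longest modified runs, up to 160200 bp, while the medians of E1, E4, E6, E7 and E8 all sit at 400 bp.

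The longest runs lay far above these medians. The longest E5 run covered 160200 bp on chromosome 3B, 31484001 to 31644200 (IWGSC RefSeq v1.0), close to the chromosome end. The longest E2 run covered 40800 bp on chromosome 7D, 481145201 to 481186000. The longest E1 run, 21200 bp on chromosome 4B from 334081001 to 334102200, was longer than the longest E4 run of 19000 bp, also on 4B, from 3764401 to 3783400. The longest E6 run had 18200 bp on 5D (15058401 to 15076600) and the longest E3 run 3400 bp on 5B (617041201 to 617044600). For E7 and E8 the longest run was 9400 bp in each case, on 3A (282797201 to 282806600) and on 3B (796503401 to 796512800). What the annotation holds at these places was not analysed here.

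Activated states hardly touched E5, while mixed states bordered often on E5 and less often on activated states. Of 1053803 borders between runs, 77.0% had E9 on a side and 242619 lay between modified states. Among those between modified states, 162646 joined a pair of activated states and 64663 joined E5 to a mixed state. Activated states met mixed states at 9697 borders, of which 4886 lay between E2 and E3. An activated state met E5 directly at 490 borders, which is 0.202% of the borders between modified states. Just 4 pairings made up 73.0% of these borders, namely E1 with E2 (77647 borders), E2 with E6 (46042), E4 with E5 (33110) and E5 with E8 (20196).

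The partner of each short state was distinct. E1 had E2 on the other side of 63.2% of its borders, against a share of 19.9% for E2 among the border sides of all states other than E1. Counted by runs, 88.8% of E1 runs touched E2, and 58.7% did so when modified runs under 600 bp were counted as E9. E6 also bordered mostly on E2, with 47.8% of its borders, and then on E9 with 28.9% and on E1 with 17.1%. E4 had E5 at 85.4% of its borders, against a share of 13.5% for E5 among border sides of the states other than E4. E8 was divided evenly, with 44.3% of its borders to E5 and 44.3% to E9. E3 was the state with the most varied neighbours, as 39.4% of its borders went to E9, 30.4% to E5 and 13.1% to E2. E7 stood apart from the rest with 91.3% of its borders to E9.

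**Figure D2:**
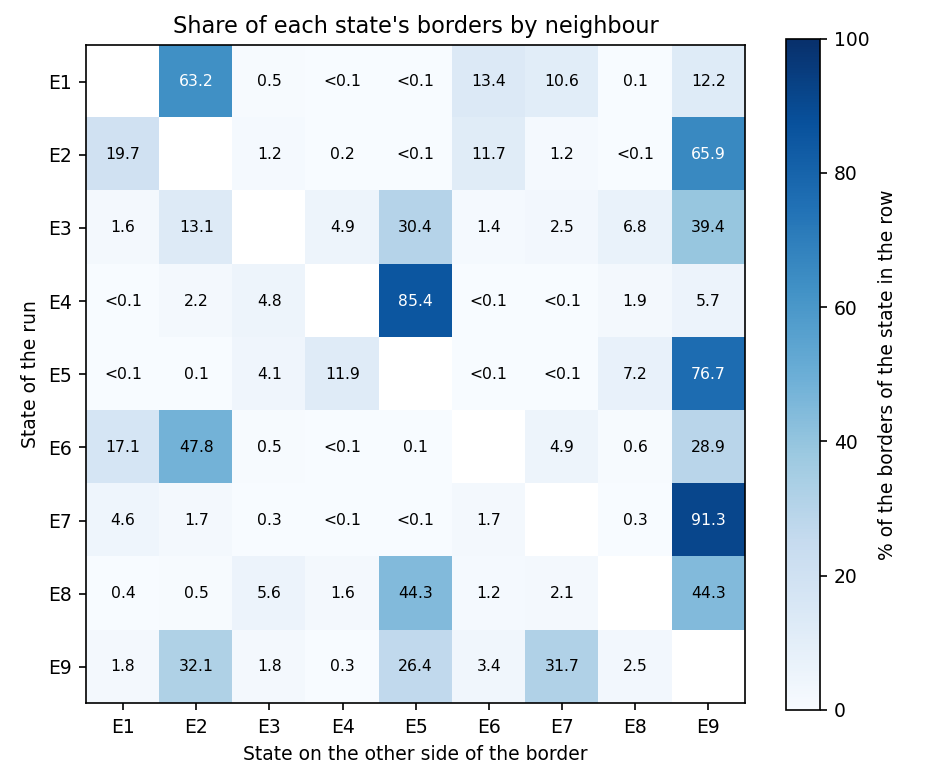
Share of each state's borders (% of the borders of the state in the row) by the state on the other side (column), over all 21 chromosomes. Each row adds up to 100%. E1 pairs with E2 (63.2%), E4 with E5 (85.4%) and E7 with E9 (91.3%), while the cells that join E1, E2, E6 or E7 to E5 hold 0.121% or less.

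The neighbours on both sides placed E4 inside E5 and E7 alone. Of E4 runs, 77.8% had E5 on each side, so that E4 appeared as a short insert in a longer H3K27me3 run. Of E7 runs, 83.1% had E9 on each side. E5 was alone in 60.9% of its runs, or 93.3% with the mixed states counted as E5, and E2 in 45.0%. E1 had E2 on each side in 37.5% of runs, E2 and E9 in 17.6%, E2 and E6 in 16.6% and E2 and E7 in 16.6%. Those last 3 forms place E1 at a change from H3K36me3 to accessible chromatin or to E9.

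Run length went with the neighbour. E5 runs between E4 and E9 had a median of 4000 bp and those between E4 on both sides 3600 bp, whereas E5 runs with E9 on both sides had a median of 1000 bp and those between E3 and E9 400 bp. E5 beside E8 and E9 was intermediate with 1400 bp. E2 runs between E1 and E9 had a median of 1000 bp and a mean of 2090 bp, and E2 runs with E9 on both sides a median of 600 bp and a mean of 1271 bp. E2 between E6 and E9 was shorter, with a median of 400 bp and a mean of 743 bp.

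A modified block was defined as an unbroken stretch of states other than E9. The 405595 blocks covered 921.2 Mb with a median of 600 bp and a mean of 2271 bp. Without modified runs under 600 bp there were 261725 blocks with a median of 1400 bp, and with gaps of up to 600 bp bridged the median was 1000 bp. A single run made up 75.05% of the blocks, and these single-state blocks held 43.9% of the block bases. Among them, E7 accounted for 116974, E2 for 88926 and E5 for 85034. The rest were E8 (5063), E6 (3866), E3 (3128), E1 (1165) and E4 (240), and for E4 this was 1.24% of its runs. Blocks with activated states only numbered 275300 (67.9% of blocks and 41.5% of block bases). Blocks of E5 only numbered 85034 (20.97% and 25.1%). Blocks of E5 with mixed states were fewer, 27658 or 6.82%, but long, with a median of 4800 bp, and held 29.8% of block bases. Blocks of mixed states only made up 2.26%, and blocks that held activated states together with E5 or mixed states 2.08%. The latter numbered 8438, against 101199 blocks of several runs, the only ones that can combine such states.

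Where blocks had several runs, a small set of orders recurred. There were 3623 different orders of several runs when an order and its reverse were counted as 1, of which 2307 were seen once, and the 20 most frequent held 68.3% of the blocks with several runs. The most frequent order of more than a single run was E2-E1-E2 with 9065 blocks and a median length of 3000 bp. Next came E2-E6 with 7964 blocks (median 800 bp), E1-E2 with 6825 (median 2200 bp) and E2-E1-E7 with 6283 (median 2800 bp). In the last of these, accessible chromatin, the state with all 3 active marks and the H3K36me3 state followed each other across the block. Among H3K27me3 blocks, E5-E8 with 5552 blocks (median 1800 bp) and E5-E4-E5 with 5534 blocks (median 9400 bp) were nearly equal in number and differed in length. E5-E4-E5-E4-E5 occurred 1348 times with a median of 16600 bp. E3-E5 had 3887 blocks with a median of 1000 bp.

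Many orders were mirror-symmetric. Of 67240 blocks with 3 or more runs, 44.7% read the same in both directions, or 67.3% with E6 and E7 counted as E9. The share was 65.4% for the 37949 blocks with 3 runs, 44.0% for the 8970 with 5 and 34.5% for the 2686 with 7, while an even number of runs cannot be symmetric because neighbours differ by definition. Likewise, an odd order in which a pair of states alternates is symmetric by construction. With E6 and E7 counted as E9, activated-only blocks hold only E1 and E2, so all their odd orders are symmetric. No expected share was computed, so these shares do not show symmetry beyond that. The ends of the blocks with 3 or more runs were E2 or E5 in most cases. Of E5 runs in them, 76.1% were outermost, and of E2 runs 70.5%, against 48.7% over all states. E7 was outermost in 96.2% of its runs. E1 was outermost in 8.72% and E4 in 4.41%.

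E1 lay between E2 and another kind of chromatin more often than between E2 on both sides. Among 31601 activated blocks with E2 and exactly 1 E1 run, E1 lay between E2 and E6 or E7 in 37.9%, between E2 on both sides in 34.5% and at the block edge beside E2 in 22.9%. Of all 42084 activated blocks with E1 and E2, 54.1% also held E6 or E7, and 41.2% had E6 or E7 at 1 end or more, while 3.60% had E6 or E7 at both ends. E6 or E7 thus stood at a single end of such blocks far more often than at both. Ends that carry E6 or E7 independently of each other would also give mostly single ends, and this was not tested. E1 at an end, which is also accessible, was not counted.

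In activated blocks of 4 kb or more (n = 24661), E7 took 11.2% of the outermost bins and 0.551% of the bins 1800 to 2000 bp inside. E1 was highest just inside the edge, with 11.5% at 200 to 400 bp against 6.68% in the outermost bin and 6.70% at 1800 to 2000 bp. E2 took 75.8% of the outermost bins and 88.0% at 1800 to 2000 bp. In blocks of E5 with mixed states of the same length (n = 15157), E8 took 11.4% of the outermost bins and 1.58% at 1800 to 2000 bp. E4 behaved otherwise, with 2.40% of the outermost bins, 5.26% at 400 to 600 bp and 4.51% at 1800 to 2000 bp. The accessible states E7 and E8 were thus both most frequent in the outermost bin of their kind of block. The accessible state E6 did not share this in activated blocks. It took 6.28% of the outermost bins, 7.88% at 400 to 600 bp and 4.79% at 1800 to 2000 bp.

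**Figure D3:**
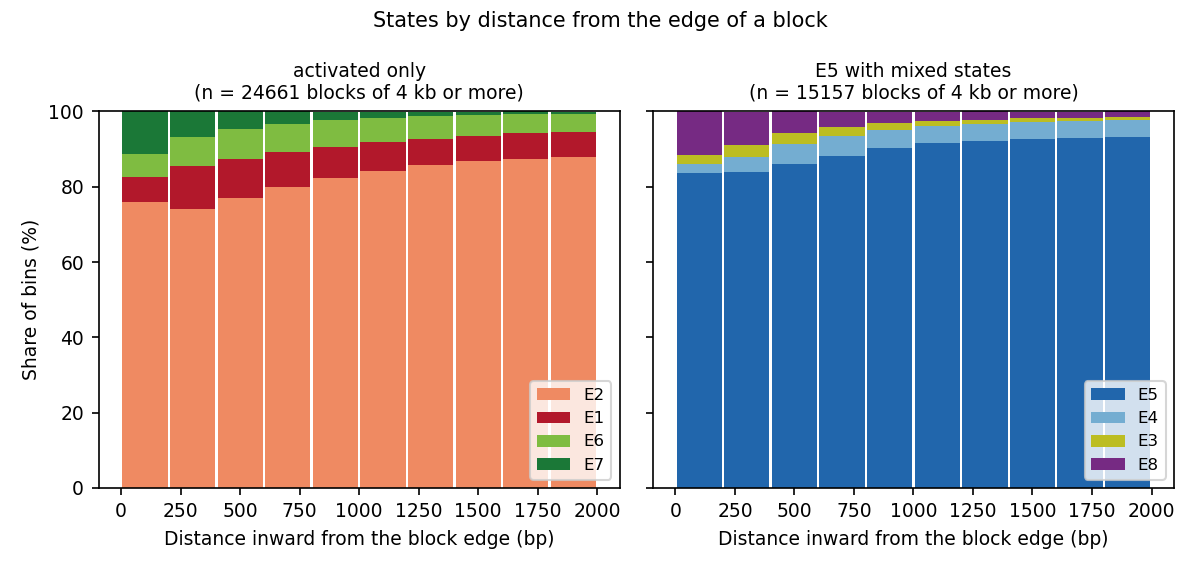
Share of bins (%) in each state by distance inward from either block edge (bp, 200 bp bins) for activated blocks (left, n = 24661) and blocks of E5 with mixed states (right, n = 15157) of 4 kb or more. E7 falls from 11.2% to 0.551% on the left and E8 from 11.4% to 1.58% on the right, and E1, E4 and E6 peak inside the edge.

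The longest block lay near the end of chromosome 1D (9159801 to 9516400), covered 356600 bp in 23 runs, and was 98.6% E5 by length with 10 short E4 runs and 1 E3 run between 12 E5 runs. The longest activated block, on chromosome 6B (387077201 to 387161400), covered 84200 bp in 29 runs, in which 15 E2 runs with 72.2% of its length alternated with 14 E1 runs. The longest block of E5 alone covered 155000 bp on chromosome 4A (712168801 to 712323800). The block with the most runs, 33 over 61200 bp, lay on chromosome 5B (691149201 to 691210400) and held 13 E4, 12 E5 and 5 E8 runs with single runs of E2, E3 and E6.

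Blocks were close to each other in groups and far apart between groups. The 405574 spacings between neighbouring blocks had a median of 3600 bp and a mean of 32407 bp, and the median was 6400 bp either without modified runs under 600 bp or with gaps of up to 600 bp bridged. Of them, 17.5% were 600 bp or less and 40.1% were 2 kb or less. The 9.89% of spacings of 100 kb or more held 63.8% of the E9 bases between blocks. E9 means that no signal was called, and the authors filtered reads by mapping quality. Whether reads could be placed in these stretches was not tested. There were 132 spacings of 1 Mb or more, of which 67 lay on chromosome 1B with 191.5 Mb in all. The longest was 10440200 bp on 1B (122973201 to 133413400).

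Neighbouring blocks tended to be of the same class. Of all neighbouring pairs, 71.5% had the same class, against 51.0% from the shares of the classes over the genome. Their shares within each of 20 equal parts of the chromosomes gave 57.3%. Each part was pooled over all chromosomes, so differences between chromosomes do not enter this value. The neighbours of activated blocks were activated in 86.9%, against 67.9% of all blocks. The neighbours of E5 blocks were E5 only in 52.5%, against 20.97% of all blocks, and E5 with mixed states in 15.8%, against 6.82%. These shares of all blocks take no account of position. Activated-only blocks made up 35.3% of blocks in the first of the 20 parts and 96.1% in part 8. No share by position was computed for single classes. The median spacing was 2800 bp between E5 blocks, 3400 bp between activated blocks and 7400 bp between an activated block and an E5 block. The share of same-class pairs was 76.5% at spacings over 200 and up to 600 bp (56.1% from the class shares of the parts where these pairs lay), 66.6% at 2 to 10 kb (53.3%) and 80.0% above 200 kb (71.6%). Activated blocks formed 36077 unbroken successions, of which 8809 were a single block, with a median of 3 and a mean of 7.63 blocks, up to 431 blocks over 13.2 Mb on chromosome 1D (162695401 to 175902200). Blocks without any activated state formed 34110 successions, of which 13362 were a single block, with a median of 2 and a mean of 3.57 blocks, up to 132 blocks over 2.61 Mb on chromosome 2A (21536201 to 24145600).

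Blocks of a single accessible run differed in where they stood. The 116974 lone E7 runs had a median distance of 12800 bp to the nearest block with E1 or E2, 25.9% of them lay within 2 kb of such a block, and 18.9% lay more than 100 kb away. For the 3866 lone E6 runs, which carry weak H3K27ac, the median was 1200 bp and 68.3% lay within 2 kb. The 5063 lone E8 runs had the same median as E7 to blocks with E1 or E2, 12800 bp, but a median of 1400 bp to the nearest block with E5, where lone E7 runs had 161400 bp. Lone E2 runs lay a median of 1400 bp from another block with E1 or E2, and lone E5 runs a median of 2000 bp from another block with E5. Within 2 kb of such a block lay 58.6% of lone E2 runs and 51.2% of lone E5 runs.

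Along the chromosomes, divided into 20 equal parts, blocks were dense at both ends and sparse in the interior. There were 49.4 blocks per Mb in the first part, 15.8 in part 7 and 58.2 in part 20. The median spacing was 3000 bp in the first part, 12800 bp in part 8 and 2800 bp in part 20. E5 runs became rare and short towards the interior, with 38.0 per Mb and a mean of 5244 bp in the first part, 0.572 per Mb and 1244 bp in part 8 and 39.9 per Mb and 4162 bp in part 20. E2 runs became less frequent but longer, with 14.8 per Mb and a mean of 1314 bp in the first part, 9.29 per Mb and 1797 bp in part 9 and 17.2 per Mb and 1193 bp in part 20. Of the blocks in part 8, 96.1% were activated only, against 35.3% in the first part and 39.0% in part 20. This is a share of few blocks, 16.9 per Mb in part 8, where E5 runs were rare. The activated-only class includes lone E7 runs, which have accessibility without a histone mark. E2 runs numbered 8.16 per Mb in part 8, fewer than at either end.

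The opposite course of E2 and E5 was found on every chromosome. Mean E2 run length was higher in parts 8 to 10 than in parts 1 and 20 together on 21 of 21 chromosomes, by a factor of 1.24 to 1.66 (median 1.48). Parts 8 to 10 were chosen after values were seen. Over all chromosomes they have the longest mean E2 runs, so this count partly follows from the choice. Mean E5 run length was lower in parts 8 to 10 on 21 of 21 chromosomes, although a chromosome had as few as 17 E5 runs there. The E2 difference was present in each kind of E2 run. Where E1 was on at least 1 side, the mean was 2350 bp in parts 8 to 10 and 1780 bp in parts 1 and 20, and with E9 on both sides it was 1493 bp and 1111 bp. The medians were 1000 bp and 800 bp in the first kind and 600 bp at both places in the second, so the difference lay mainly in the longer runs.

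**Figure D4:**
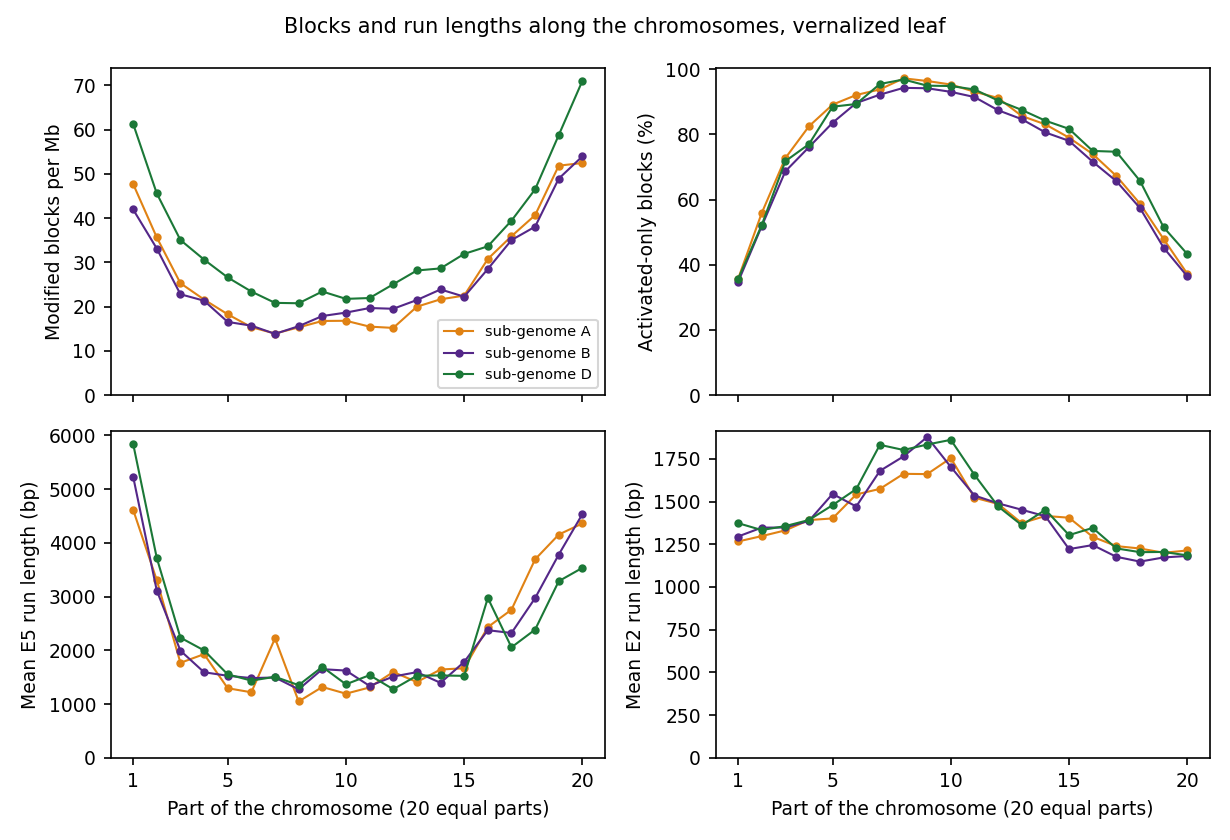
Modified blocks per Mb, share of activated-only blocks (%), mean E5 run length (bp) and mean E2 run length (bp) in 20 equal parts of the chromosomes, with 1 line for each of the 3 sub-genomes (7 chromosomes each). Blocks are densest at both ends and E5 runs are longest there, while E2 runs are longest in the interior. Sub-genome D has more blocks per Mb in every part.

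Bread wheat carries the sub-genomes A, B and D, whose chromosomes form 7 homoeologous groups, each descended from a common ancestral chromosome. For each of 11 measures and 3 pairs of sub-genomes, 33 comparisons in all, the differences within groups were tested with a two-sided exact permutation of their 128 sign patterns. The smallest p-value that 7 groups allow is 0.0156. Chromosomes are parts of 1 segmentation and not replicates of plants. In all, 10 comparisons had an unadjusted p under 0.05, and 0 passed after Benjamini-Hochberg adjustment. With 11 comparisons at the smallest p, these would have passed, and 7 were found. The differences below are described by their size and by how many chromosome groups share their direction.

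The number of blocks per chromosome differed by less than the spread between chromosomes, with 18788 ± 2321 in A, 19560 ± 3628 in B and 19594 ± 3082 in D (SD, n = 7 chromosomes each). The chromosomes were not equal in length, with a median of 736.7 Mb in A, 721.0 Mb in B and 566.1 Mb in D. Within groups, the B chromosome was longer than the A chromosome in all groups except group 4. Block density was 26.6 ± 1.43 blocks per Mb in A and 26.3 ± 3.70 in B, and 34.6 ± 2.13 in D. Single chromosomes had 24.4 to 28.3 (median 26.6) in A, 18.5 to 29.1 (median 27.3) in B and 30.5 to 37.4 (median 35.04) in D, so that every D chromosome lay above all A and B chromosomes (exact permutation p = 0.0156 for A against D and for B against D, adjusted p = 0.0737 in both). Without the first 240 Mb of chromosome 1B, which holds the sparsest stretch, B had 27.6 ± 1.36. Median spacing was wider in A than in D in 7 of 7 groups, 3800 ± 346 bp and 3371 ± 138 bp, and in B than in D, where B had 3686 ± 107 bp (adjusted p = 0.0737 for both, from exact permutation p-values of 0.0156).

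The make-up of blocks differed by little. Blocks of a single state took 73.9 ± 0.674% in A, 76.0 ± 0.658% in B and 75.2 ± 0.606% in D. All 7 A chromosomes were below their B homoeologues (exact permutation p = 0.0156, adjusted p = 0.0737), but this order was lost when runs under 600 bp were left out. A had 1.62 ± 0.0282 and B 1.57 ± 0.0261 runs per block, again with A higher in 7 of 7 groups, with the same p-values and the same loss. Mean E2 run length was 1371 ± 32.5 bp in A and 1408 ± 27.995 bp in D, so that A was lower in each of the 7 groups (adjusted p = 0.0737 from an exact permutation p = 0.0156). Mean E5 run length was 3462 ± 1005 bp in A, 3286 ± 824 bp in B and 3408 ± 623 bp in D, and its spread within a sub-genome exceeded the differences between them. Among blocks of several runs, E2-E1-E2 took 9.58% in A, 8.62% in B and 8.65% in D, and E5-E4-E5 took 5.63% in A, 5.50% in B and 5.27% in D. E1-E2 took 7.51% in A, 6.40% in B and 6.30% in D, while E2-E6 took 7.08% in A, 8.08% in B and 8.47% in D, so that E1-E2 was the more frequent of the pair in A and E2-E6 in B and D. These shares were not tested. Lone E7 runs numbered 35379 in A, 37854 in B and 43741 in D, the shortest sub-genome, and this difference was not tested.

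Chromosomes differed more than sub-genomes in the measures of E5. Mean E5 run length was highest on 4A with 5385 bp and lowest on 1B with 2323 bp, and the share of E5 bases in runs of 10 kb or more was likewise highest on 4A with 64.3% and lowest on 1B with 29.3%. Mean block length was highest on 4A with 3289 bp and lowest on 4D with 1673 bp. Block density was highest on 5D with 37.4 per Mb and lowest on 1B with 18.5, and the number of blocks was highest on 2B with 22874 and lowest on 1B with 12764. The first 240 Mb of 1B held few blocks, as the genome had 405595 blocks with that stretch and 405268 without it. Without that stretch, B had 27.6 ± 1.36 blocks per Mb. The arrangement of E1 hardly varied, as the share of E1 runs next to E2 was 89.98% on 4A, the highest, and 87.1% on 2A, the lowest. Mean E2 run length also covered a narrow range, with 1446 bp on 4B and 1331 bp on 2A. Neighbouring blocks were of the same class in 79.6% of pairs on 4D and 67.2% on 7D, the extremes of the 21 chromosomes. The highest and lowest chromosomes were 3A with 1.66 and 7B with 1.54 for runs per block, 7B with 77.3% and 3A with 72.9% for single-state blocks, and 6A with 4200 bp and 2D with 3200 bp for the median spacing.

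**Figure D5:**
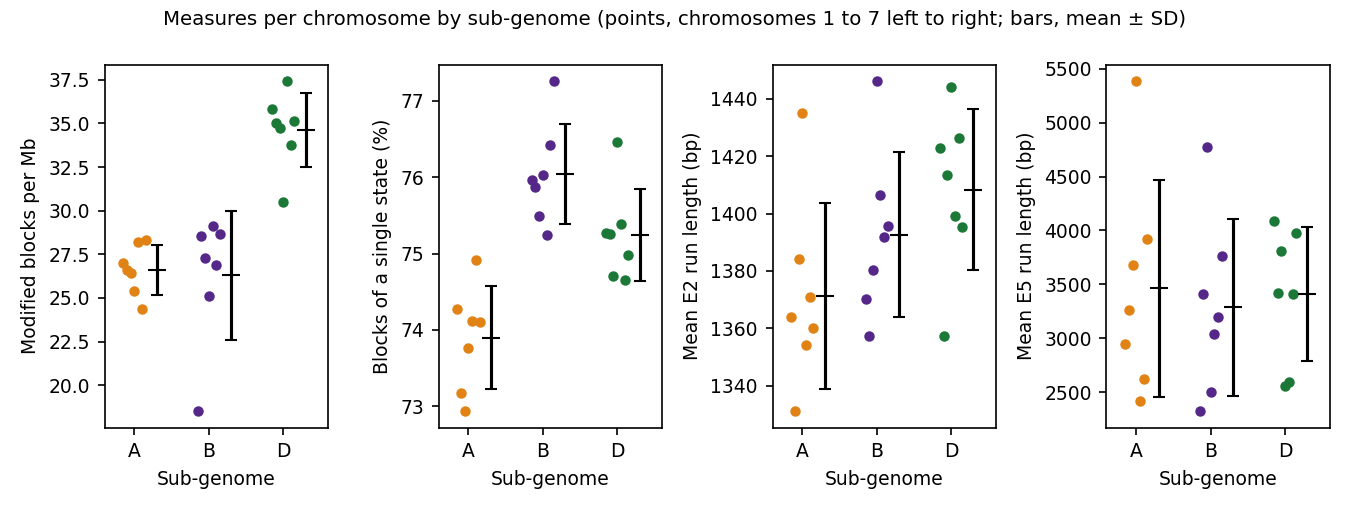
Modified blocks per Mb, share of blocks with a single state (%), mean E2 run length (bp) and mean E5 run length (bp) for each chromosome (points, 7 per sub-genome), with mean and SD (bars). Axes do not start at 0. All 7 D chromosomes lie above all A and B chromosomes in block density, and the low B point is 1B with 18.5 per Mb, while the sub-genomes overlap in E2 and E5 run length. The first 240 Mb of 1B hold few blocks.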

How the data were processed

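The authors checked the reads with fastp (0.21.0 in the submitters' notes), used Bowtie2 (2.3.5.1) for alignment to IWGSC RefSeq v1.0, filtered by mapping quality, removed duplicates and trained ChromHMM on peaks of 4 histone marks and accessibility. The deposited values are state labels per segment, with no count or signal. How replicates were combined and the peak settings for the histone marks are not given in the sources used here. Weak peaks that fall under a threshold break a run or a block, and all lengths are multiples of 200 bp. The transition probabilities of the model also enter which states border each other.

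Records of 4 fields were read, and tested to tile the 21 chromosomes with 0 gaps. The 1833172 records were merged to 1053824 runs. Runs of E2 and E5 were often divided in the deposit (175613 borders within E2 and 160808 within E5). No column was left unmatched. Shares are of all runs or blocks, not of a sample, so no interval is printed. Regions named are the longest of each kind and the extreme chromosomes of each measure. The successions of blocks, the class shares within parts, the 20 parts set side by side and the lone runs were added after values were seen. Members, measures and rules were chosen with earlier results of these data known. Functions were tested on simulated data. Alternatives were runs under 600 bp left out, gaps up to 600 bp bridged, other groupings of states, unmerged records, the first 240 Mb of chromosome 1B left out, and the chromosome groups left out 1 at a time. Genes and sequences were not analysed here, since no annotation of the build of the segmentation was used. Python 3.11.15, numpy 2.4.6, scipy 1.17.1 and matplotlib 3.10.9 were used.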

Additional observations from a re-analysis of the deposited data

How the results depend on the processing

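No paired analysis was possible because the libraries that share replicate numbers were joined in 1 segmentation. Leaving out runs under 600 bp changed most measures by construction, with 261725 blocks, a median block of 1400 bp, 87.9% single-state blocks, 65.3% symmetric orders, a median spacing of 6400 bp, 58.7% of E1 runs next to E2, 80.9% of E5 runs between E9, median runs of 1400 bp (E2) and 2200 bp (E5) and 49.5% of E5 bases in runs of 10 kb or more. Bridging gaps of up to 600 bp gave a median block of 1000 bp, 69.2% single-state blocks, 39.0% symmetric orders, a median spacing of 6400 bp and 68.5% same-class neighbours. With E6 and E7 counted as E9 these were 1000 bp, 74.7%, 67.3%, 3400 bp and 65.2%. With E3, E4 and E8 counted as E5, 82.0% of blocks had a single state, 38.1% of orders were symmetric, 80.7% of neighbours had the same class, 93.3% of E5 runs lay between E9 and 58.9% of E5 bases were in runs of 10 kb or more. Unmerged records gave medians of 400 bp (E2) and 1000 bp (E5). The other 42 values stayed within 1.5 times (counts) or within the 95% interval of the main value. That interval treats the bins, runs or blocks of 1 segmentation as independent draws, is very narrow, and serves only to sort these values. Without the first 240 Mb of 1B all 12 results stayed so. The number of sub-genome comparisons with an adjusted p under 0.05 was 0 in every alternative, with 7 to 11 unadjusted. Leaving out a chromosome group raised the smallest possible p to 0.0313, with 7 to 10 comparisons under 0.05 unadjusted. At that smallest p, 10 or fewer such comparisons cannot pass the adjustment. The value of 0 with a group left out therefore carries no information on stability. Of the 10 comparisons with an unadjusted p under 0.05, 3 turned their direction without runs under 600 bp. These were runs per block between A and B (difference of A minus B -0.00319) and the share of single-state blocks between A and B (0.122 percentage points) and between A and D (0.795 percentage points).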

Other observations

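The direction in which states follow each other along the reference was not even. Reference direction carries no meaning for a gene, since genes lie on both strands. Yet E1 followed by E9 on its right was counted 8107 times and E9 followed by E1 6885 times, and E1 on the left was the more frequent on 21 of 21 chromosomes. For E6 and E9 it was the reverse, with 13192 borders that had E6 on the left and 14652 that had it on the right, and the second was more frequent on 21 of 21. E2 stood left of E3 at 2582 borders and right of it at 2304 (21 of 21 chromosomes), and left of E6 at 22509 and right of it at 23533 (0 of 21). E1 stood left of E2, the most frequent border between modified states, at 38192 borders and right of it at 39455, and the second was more frequent on 20 of 21 chromosomes. Some rare pairings were lopsided, with E6 left of E8 at 473 borders and right of it at 71, E8 left of E2 at 215 and right of it at 35, and E5 left of E6 at 89 and right of it at 10, while others were nearly even, such as E3 left of E7 at 481 and right of it at 466. The most frequent borders with E9 were nearly even, with E2 left of E9 at 130010 and right of it at 130165, and E7 left of E9 at 128550 and right of it at 128461. The pattern was chosen after the values were seen, and its cause was not tested.

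E4, E6, E7 and E8 were almost never divided in the deposit, with 6 borders between records of the same state for E4 and 0 for E6, E7 and E8, while E9 had 428414, E2 175613, E5 160808, E1 13777 and E3 730.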
